A study of Mus musculus with 2 samples.

Results

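The genes described here encode mitochondrial carriers and the protein import machinery of mitochondria, in macrophages of mice that carried an acute myeloid leukaemia driven by the MLL-AF9 fusion. They were taken by name, as every gene whose deposited symbol begins with Slc25a, Timm or Tomm followed by a digit. In all, 67 of the 16428 genes with a read carried such a name, 44 Slc25a, 14 Timm and 9 Tomm genes. Of these, 61 reached 10 reads in either library and were compared. The other 6 (Slc25a2, Slc25a18, Slc25a31, Slc25a34, Slc25a43 and Timm8a2) had between 0 and 8 reads per library and could not be compared at this depth.

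There was 1 RNA-seq library of macrophages from bone marrow and 1 from spleen. Both came from C57BL/6J mice, with a stated age of 6 to 8 weeks, that received 500000 GFP-labelled leukaemia cells without irradiation, and sorting took place on day 15. Leukaemic mice lived 25 to 30 days. The sort gates, the number of mice behind each library and macrophages of healthy mice are not part of the sources used here. After scaling, the effective depths were 9405947 uniquely placed reads in bone marrow and 8457857 in spleen. No tissue was replicated, so no p-value is given and each difference is between these libraries only.

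Mitochondria make few of their own proteins, so nearly all are imported from the cytosol. The TOM complex of the outer membrane is the common entry gate. Behind it, the TIM23 complex takes up proteins with a cleavable targeting signal, while the small TIM chaperones of the intermembrane space and the TIM22 complex deliver the multispanning carriers. Those carriers, the SLC25 family, exchange nucleotides, phosphate, organic acids, amino acids, cofactors and iron across the inner membrane. Macrophages draw on them for respiration, for citrate export to fatty acid synthesis and for the handling of iron and heme.

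Levels are given as CPM (reads scaled to a common library size with TMM, a correction for library composition) where libraries are compared, and as the deposited RPKM (also divided by gene length) where genes are compared. A fold is a ratio of CPM with an exact conditional binomial 95% interval that covers counting error only. A gene was called higher in 1 library when log2(CPM + 1) differed by at least 2-fold, a scale that understates the change of low genes, among 12970 genes that reached 1 CPM and 10 reads in either library. All 61 members compared passed that floor.

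Marker genes of other cell types differed between the libraries. Of 18 macrophage genes, 0 were called towards bone marrow and 11 towards spleen, with summed levels of 756 CPM in bone marrow against 1711 CPM in spleen. All 18 had reads in both libraries. The defining macrophage genes Adgre1 (F4/80), at 53.1 CPM in bone marrow against 142 CPM in spleen, and Csf1r, at 197 CPM in bone marrow against 364 CPM in spleen, were present in both. Adgre1 was named after its values were seen. Spic and Mertk, the macrophage genes with the largest ratios, were low in bone marrow. Spic was at 4.15 CPM in bone marrow against 38.2 CPM in spleen, and Mertk at 4.04 CPM in bone marrow against 27.1 CPM in spleen. Granulocyte genes summed to 48805 CPM in bone marrow against 2330 CPM in spleen, with 16 of the 17 measured higher in bone marrow and Ly6g in neither table. Proliferation genes, which mark dividing cells, were higher in bone marrow in 22 of 22 cases, with sums of 6984 CPM in bone marrow against 1920 CPM in spleen. Stem and progenitor genes had 10 of 12 higher in bone marrow (1838 CPM in bone marrow against 399 CPM in spleen), with Mecom at 0 reads in spleen and Spink2 in neither table, and megakaryocyte genes 7 of 10 (414 CPM in bone marrow against 92.2 CPM in spleen). B cell genes (512 CPM in bone marrow against 5294 CPM in spleen), T cell genes (218 CPM in bone marrow against 1732 CPM in spleen) and dendritic cell genes (221 CPM in bone marrow against 1268 CPM in spleen) were higher in spleen in 12 of 12, 14 of 14 and 9 of 12 cases. Erythroid genes summed to 416 CPM in bone marrow against 266 CPM in spleen, with 2 of 16 higher in bone marrow and 1 in spleen. Tfrc, the transferrin receptor, which many dividing cells also use, made up 248 CPM of that sum in bone marrow against 130 CPM in spleen. All differences below run beside these ones, and the part of cell composition in them was not tested. In such bulk libraries, fewer cells of a type and less RNA per cell cannot be told apart.

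Few members differed by 2-fold. In bone marrow 3 of 61 were higher (Slc25a24, Slc25a13 and Timm8a1), against a background of 14.1% of all measured genes, and 3 of 61 were higher in spleen (Slc25a53 and Slc25a35 among them), against 14.6%. Those are 4.92% of the members in each direction. Smaller differences were common at this depth. The interval of the fold lay above 1, towards bone marrow, for 28 members and below 1, towards spleen, for 12, beside 38.2% and 35.9% of all measured genes. These counts use the TMM scaling and were not repeated with the others. Bounds close to 1, such as the lower bound of 1.01 for Tomm22, can cross it under another scaling. The median log2 ratio, bone marrow minus spleen, was 0.20 over the members and 0.03 over all measured genes.

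The families differed in where their members lay. The median log2 ratio was 0.43 for 13 Timm genes and 0.22 for 9 Tomm genes. Of these, 12 and 7 had log2 ratios above 0, beside 51.4% of all measured genes. For 39 Slc25a genes the median was -0.04, with 18 above 0 and 21 below. A median this close to 0 moved to -0.10 with library totals as the scaling. The carriers also spread more widely, with a standard deviation of log2 ratios of 0.75 among Slc25a genes, 0.38 among Timm genes and 0.41 among Tomm genes, and 1.14 among all measured genes.

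**Figure D1:**
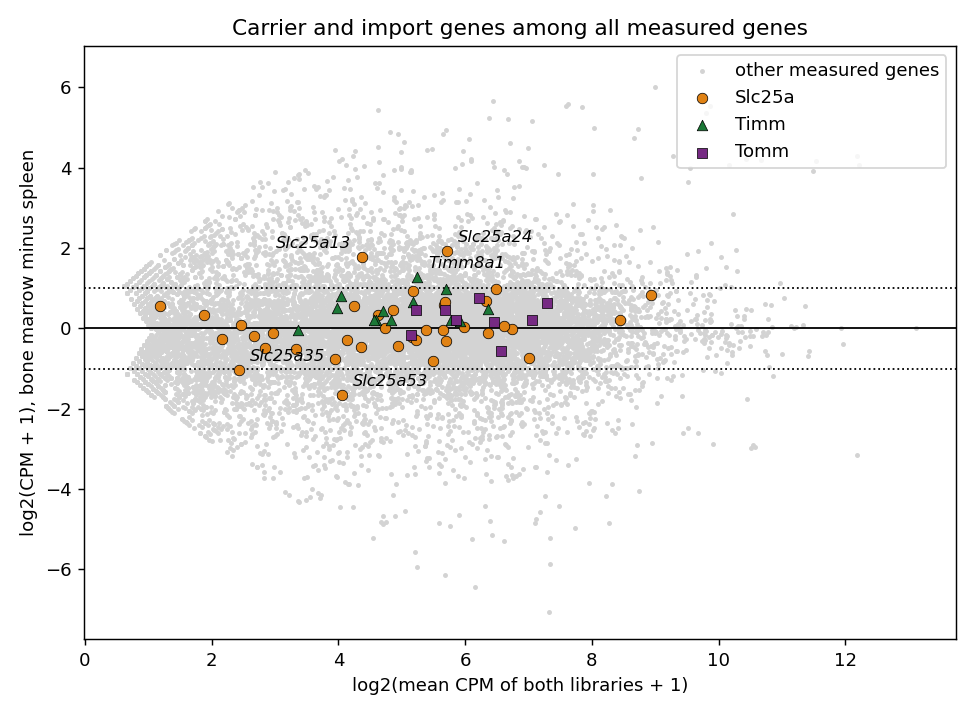
Difference in log2(CPM + 1), bone marrow minus spleen, against log2 of the mean CPM + 1 of both libraries, for 12970 measured genes (grey) and 60 Slc25a, Timm and Tomm genes (coloured by family), with 1 library per tissue. Dotted lines mark the 2-fold limit, and the 5 named members lie beyond it.

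The RefSeq promoter table (GRCm38.p6) held a window for 49 of the 61 members, and for 4 of the 6 members beyond the 2-fold limit. The 250 bases before the start site of those 4 are shown, because they are among the members whose levels differed most between the libraries. Capitals mark matches to any of the 7 short motifs named after them.
Slc25a24, chr3:109122899-109123148, plus strand: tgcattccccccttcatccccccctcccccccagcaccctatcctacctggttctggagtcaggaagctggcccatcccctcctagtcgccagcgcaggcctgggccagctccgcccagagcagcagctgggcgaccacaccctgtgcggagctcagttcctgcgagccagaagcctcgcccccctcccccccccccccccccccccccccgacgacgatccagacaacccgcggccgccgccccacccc
Slc25a13, chr6:6217174-6217423, minus strand: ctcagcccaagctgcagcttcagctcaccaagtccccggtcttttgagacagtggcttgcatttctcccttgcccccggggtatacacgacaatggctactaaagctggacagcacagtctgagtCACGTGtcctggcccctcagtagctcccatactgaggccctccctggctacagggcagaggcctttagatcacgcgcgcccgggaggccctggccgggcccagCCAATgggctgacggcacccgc
Timm8a1, chrX:134541671-134541920, minus strand: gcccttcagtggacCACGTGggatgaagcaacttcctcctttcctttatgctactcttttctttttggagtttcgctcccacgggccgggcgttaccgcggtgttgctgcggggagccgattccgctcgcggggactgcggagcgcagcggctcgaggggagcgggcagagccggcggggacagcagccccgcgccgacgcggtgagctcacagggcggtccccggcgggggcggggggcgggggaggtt
Slc25a53, chrX:137038303-137038552, minus strand: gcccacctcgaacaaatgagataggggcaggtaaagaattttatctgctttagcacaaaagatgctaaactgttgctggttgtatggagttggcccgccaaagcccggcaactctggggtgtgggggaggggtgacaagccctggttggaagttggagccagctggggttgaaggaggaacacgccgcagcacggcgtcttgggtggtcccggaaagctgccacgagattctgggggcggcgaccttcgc

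In the windows of 250 bases before to 50 after the start, Slc25a13 held the E-box CACGTG 125 bases before its start and CCAAT 22 bases before it. Timm8a1 held CACGTG 236 bases before its start and again at base 25 after it. No letters of the searched motifs were in the window of Slc25a24 or in the one shown for Slc25a53. The table lists 2 windows for Slc25a53, and the one not shown held CCAAT. Over both strands and any listed window of a gene, CACGTG, a site bound by MYC with MAX and by other helix-loop-helix factors, was found in 10 of 49 members (20.4%), against 11.6% of the 10384 measured genes with a window. The ETS core CCGGAAG was in 26.5% of members and 19.8% of measured genes, CCAAT, the core bound by NF-Y, in 49.0% of members and 42.9% of measured genes, and the NRF1 core (GCGCA, any base, then GCGC) in 6.12% of members and 11.1% of measured genes. AAGATGGC (YY1) was in 4.08% of members and 5.22% of measured genes, TTTCCCGC (E2F) in 2.04% of members and 2.34% of measured genes, and TATAAA, the TATA box, in 6.12% of members and 8.88% of measured genes. Matches are descriptions of letters and not binding sites.

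The TOM complex was somewhat higher in bone marrow in most of its subunits, and none of the 8 measured genes passed the 2-fold limit. Tomm40, which forms the channel, was at 92.3 CPM in bone marrow against 54.4 CPM in spleen, 1.70-fold higher (1.51 to 1.90). Tomm70a, the receptor that recognises carrier precursors, was at 190.1 CPM in bone marrow against 122 CPM in spleen, 1.55-fold higher (1.44 to 1.68). The presequence receptor Tomm20 differed less, at 141 CPM in bone marrow against 122 CPM in spleen (1.16-fold, 1.07 to 1.26). Tomm22, the central receptor that holds the complex together, was at 91.8 CPM in bone marrow against 82.1 CPM in spleen (1.12-fold, 1.01 to 1.24). The channel and the carrier receptor differed more than the other receptors, with intervals that did not meet theirs.

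The small TOM subunits, which stabilise the complex, lay between these. Tomm5 was at 42.0 CPM in bone marrow against 30.5 CPM in spleen, Tomm6 at 58.4 CPM in bone marrow against 42.0 CPM in spleen and Tomm7 at 61.2 CPM in bone marrow against 52.5 CPM in spleen, with intervals of the fold above 1 for all of them. Tomm40l, a close relative of the channel gene, was the exception, at 32.2 CPM in bone marrow against 36.3 CPM in spleen, with an interval of 0.755 to 1.04 that spanned 1. Tomm34, a cytosolic co-chaperone that carries the family name without being a subunit, was 1.47-fold higher in spleen (1.34 to 1.63), at 75.9 CPM in bone marrow against 112 CPM in spleen.

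**Figure D2:**
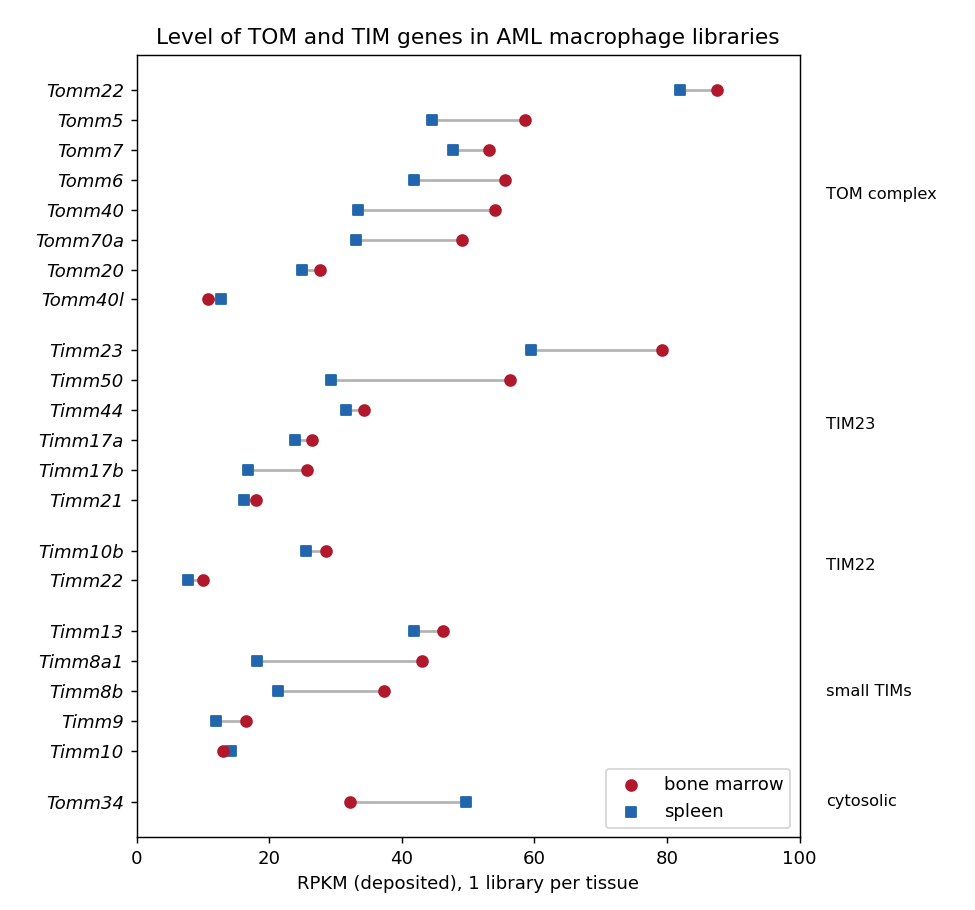
Deposited RPKM of 22 TOM and TIM genes in the bone marrow library (red circles) and the spleen library (blue squares), 1 library per tissue, grouped by complex. Bone marrow lies to the right in all but Tomm40l, Timm10 and Tomm34, and Tomm22 is the highest of these genes in both libraries, at 87.6 RPKM in bone marrow against 82.0 RPKM in spleen.

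All 6 TIM23 genes were higher in bone marrow in CPM, by 1.14-fold to 2.01-fold, and none was called by the 2-fold rule. Timm50, the receptor that takes over proteins from the TOM complex, was at 68.0 CPM in bone marrow against 33.8 CPM in spleen. Its fold was 2.01 (1.75 to 2.32), or 0.99 as a difference of log2(CPM + 1), so just short of the limit. Timm23, the channel-forming subunit, was at 94.2 CPM in bone marrow against 67.5 CPM in spleen (1.40-fold, 1.25 to 1.55). Timm17b was at 43.3 CPM in bone marrow against 27.1 CPM in spleen (1.60-fold, 1.36 to 1.89), while its relative Timm17a, at 24.8 CPM in bone marrow against 21.4 CPM in spleen, had an interval of 0.949 to 1.41. Timm44, which tethers the import motor to the channel, was at 63.0 CPM in bone marrow against 55.5 CPM in spleen (1.14-fold, 1.01 to 1.29). Timm21, which contacts the TOM complex, was at 24.2 CPM in bone marrow against 20.8 CPM in spleen, with an interval of 0.953 to 1.43.

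The TIM22 route showed small differences at its translocase. Its chaperones ranged from nearly equal levels (Timm10) to a 2.49-fold difference (Timm8a1). Timm22, the core of the carrier translocase, was at 29.0 CPM in bone marrow against 21.3 CPM in spleen (1.36-fold, 1.13 to 1.66), and Timm10b, which docks the chaperones onto it, at 29.6 CPM in bone marrow against 25.3 CPM in spleen (0.974 to 1.40). Timm29, a further subunit in mammals, was listed in the tables under the name 1810026J23Rik and so was not among the members. It was at 76.1 CPM in bone marrow against 53.0 CPM in spleen.

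Among the small TIM chaperones, Timm8a1 was called higher in bone marrow. It had 496 reads in bone marrow against 179 in spleen, or 52.7 CPM in bone marrow against 21.2 CPM in spleen, a 2.49-fold difference (2.10 to 2.97). Timm8b, of the same subfamily, was at 20.1 CPM in bone marrow against 11.0 CPM in spleen (1.83-fold, 1.42 to 2.37), and their partner Timm13 at 57.9 CPM in bone marrow against 50.1 CPM in spleen (1.16-fold, 1.02 to 1.32). Timm8b had 189 reads in bone marrow against 93 in spleen. Nkapd1, which overlaps Timm8b, had more reads, with 356 in bone marrow against 334 in spleen. The Timm9 and Timm10 proteins form the other chaperone ring. Timm9 was at 17.5 CPM in bone marrow against 12.1 CPM in spleen (1.45-fold, 1.13 to 1.88), and Timm10 was nearly equal at 9.14 CPM in bone marrow against 9.46 CPM in spleen. Timm8a1 and Timm13, whose products assemble together, had folds with intervals that did not meet.

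Import genes outside the family names were listed for comparison, and went both ways within each list. Of 7 import motor genes, 0 were called in either direction, with a median log2 ratio of 0.25, and Hspa9, the motor's Hsp70, was at 361 CPM in bone marrow against 189.9 CPM in spleen. Grpel2, a nucleotide exchange factor of that Hsp70, was lower in bone marrow, at 26.8 CPM against 42.1 CPM in spleen (0.637-fold, 0.540 to 0.750). Intervals of the motor genes lay above 1 for 3 and below 1 for 2. Outer membrane assembly genes (0 of 4 called, median 0.40) included Samm50, the barrel insertase, at 151 CPM in bone marrow against 94.2 CPM in spleen, and had intervals above 1 for 2 and below 1 for 1. The disulfide relay had 0 of 3 called and a median of 0.73, with Chchd4, its oxidoreductase, at 25.9 CPM in bone marrow against 15.3 CPM in spleen, and intervals above 1 for 2 and below 1 for 1. Of 10 peptidase and insertase genes (median 0.47) 1 was called, higher in bone marrow, beside 14.1% of all measured genes. It was Mipep, a presequence-trimming peptidase, at 37.4 CPM in bone marrow against 17.9 CPM in spleen. Intervals of that list lay above 1 for 6 genes and below 1 for 2. Respiratory chain and ATP synthase genes had 0 of 31 called, with 30 of 31 above 0, beside 51.4% of all measured genes. Their median was 0.50, close to that of the Timm genes, and they summed to 5943 CPM in bone marrow against 3999 CPM in spleen.

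The carriers of ATP, ADP and phosphate included the most abundant members. Slc25a5, the adenine nucleotide translocase of dividing cells, had the highest RPKM of all 61 members in both libraries, at 496 RPKM in bone marrow against 292 RPKM in spleen. It was 1.78-fold higher in bone marrow in CPM (628 CPM in bone marrow against 353 CPM in spleen, 1.70 to 1.86), within the 2-fold limit. It has many processed pseudogenes, so a count of uniquely placed reads is uncertain for it. Slc25a4, the translocase typical of muscle, was at 78.0 CPM in bone marrow against 84.7 CPM in spleen, with an interval of 0.830 to 1.02. Slc25a5 made up 88.1% of the summed RPKM of both translocases in bone marrow and 79.4% in spleen. Slc25a3, the phosphate carrier, came next in abundance, at 243 RPKM in bone marrow against 218 RPKM in spleen, or 376 CPM in bone marrow against 322 CPM in spleen (1.16-fold, 1.11 to 1.22).

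Calcium-regulated ATP-Mg/phosphate carriers, which adjust the adenine nucleotide content of the matrix, diverged from each other. Slc25a24 had 770 reads in bone marrow against 177 in spleen, or 81.9 CPM in bone marrow against 20.9 CPM in spleen, a 3.91-fold difference (3.32 to 4.63) and the largest among the members towards bone marrow. Its relatives did not follow it. Slc25a25 was at 32.3 CPM in bone marrow against 37.5 CPM in spleen (0.734 to 1.01) and Slc25a23 at 26.5 CPM in bone marrow against 20.8 CPM in spleen (1.27-fold, 1.04 to 1.55). Per length, Slc25a24 was at 23.6 RPKM and Slc25a25 at 8.82 RPKM in bone marrow, and in spleen the order was turned, with 6.33 RPKM for Slc25a24 and 10.7 RPKM for Slc25a25.

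**Figure D3:**
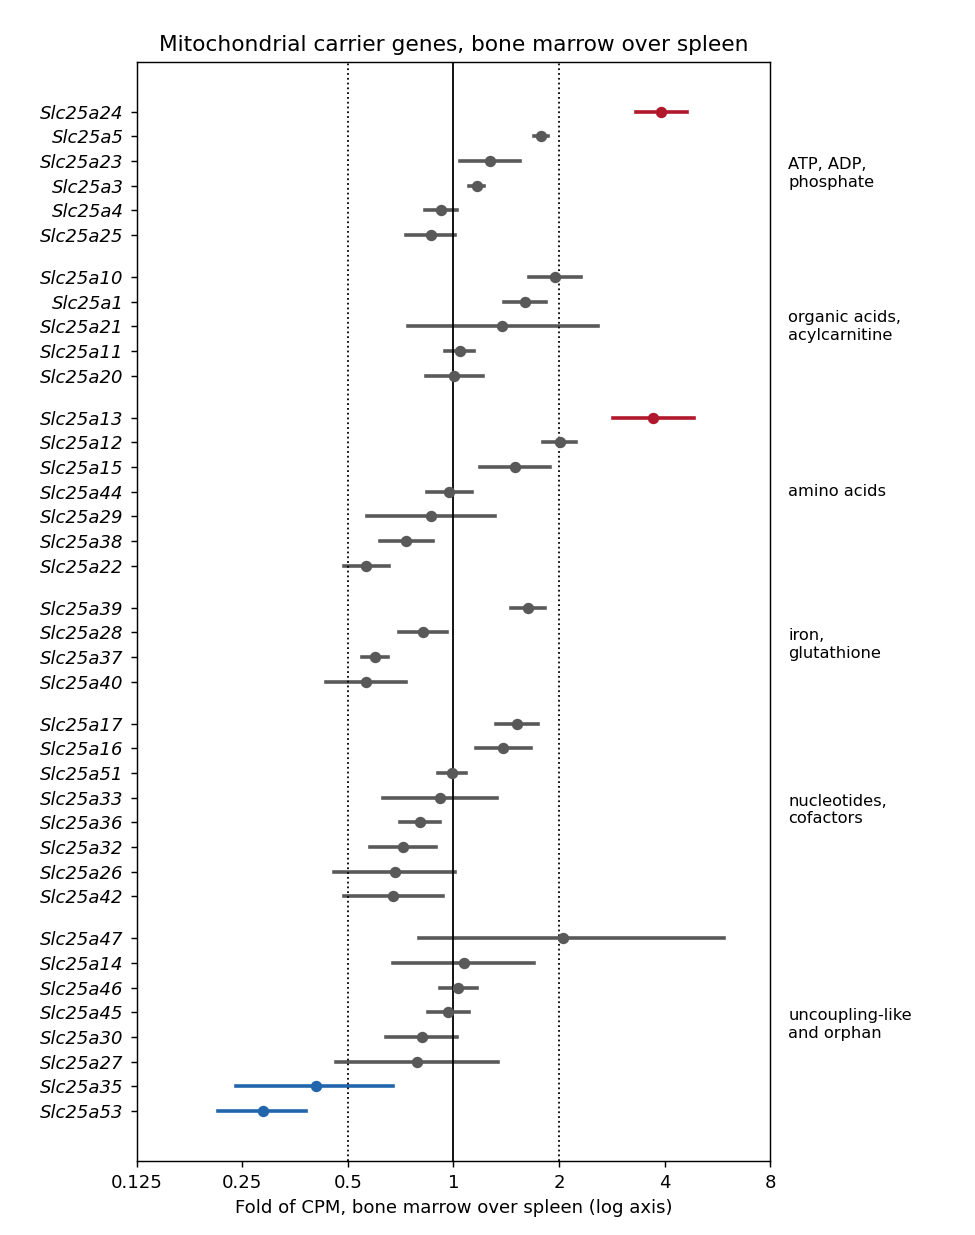
Fold of CPM, bone marrow over spleen, on a log axis for 38 Slc25a genes grouped by substrate, with bars for the exact 95% counting interval and 1 library per tissue. Red and blue mark genes called higher in bone marrow and in spleen, and dotted lines mark 2-fold, with Slc25a24 at 3.91 and Slc25a53 at 0.287 as the extremes.

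Among organic acid carriers, those for citrate and dicarboxylates were higher in bone marrow within the 2-fold limit. Slc25a1, which exports citrate for fatty acid synthesis, was at 62.2 CPM in bone marrow against 38.8 CPM in spleen (1.60-fold, 1.40 to 1.84). Slc25a10, the dicarboxylate carrier, was at 46.5 CPM in bone marrow against 23.9 CPM in spleen (1.95-fold, 1.64 to 2.31). Slc25a11, the oxoglutarate/malate carrier, and Slc25a20, the acylcarnitine carrier that feeds fatty acid oxidation, were nearly equal in both libraries. Slc25a11 was at 98.8 CPM in bone marrow against 94.7 CPM in spleen and Slc25a20 at 25.8 CPM in bone marrow against 25.7 CPM in spleen, and both change sign with library totals as the scaling. A gene overlapping Slc25a11, Rnf167, had more reads than it in spleen (592 in bone marrow against 1289 in spleen). Slc25a21, the oxoadipate carrier, had 29 reads in bone marrow against 19 in spleen, and its interval of 0.744 to 2.59 spanned 1.

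Both aspartate/glutamate carriers of the malate-aspartate shuttle were higher in bone marrow. Slc25a13, also called citrin, had 292 reads in bone marrow against 71 in spleen, or 31.0 CPM in bone marrow against 8.39 CPM in spleen, a 3.70-fold difference (2.84 to 4.86). Slc25a12, also called aralar, was at 119 CPM in bone marrow against 59.2 CPM in spleen, a fold of 2.01 (1.80 to 2.23) or 0.99 as a difference of log2(CPM + 1), so just short of the limit. Slc25a12 stayed the more abundant per length, and Slc25a13 made up 19.6% of their summed RPKM in bone marrow and 11.7% in spleen.

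The remaining amino acid carriers went both ways within 2-fold. Slc25a22, a glutamate carrier, was 1.77-fold higher in spleen (1.53 to 2.05), at 32.0 CPM in bone marrow against 56.6 CPM in spleen. Slc25a15, the ornithine carrier of the urea cycle, was at 21.6 CPM in bone marrow against 14.4 CPM in spleen (1.50-fold, 1.19 to 1.89) and so higher in bone marrow. Slc25a44, a carrier of branched-chain amino acids, was nearly equal at 40.2 CPM in bone marrow against 41.3 CPM in spleen. For Slc25a29, a carrier of basic amino acids, 47 reads in bone marrow against 49 in spleen gave an interval of 0.566 to 1.31.

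Carriers of iron and glycine, which serve heme or iron-sulfur cluster synthesis, were somewhat higher in spleen. Slc25a37 (mitoferrin-1), which imports iron and is prominent in erythroid cells, was 1.67-fold higher in spleen (1.54 to 1.82), at 95.8 CPM in bone marrow against 160.4 CPM in spleen. Slc25a28 (mitoferrin-2), the form found in most tissues, was at 32.9 CPM in bone marrow against 40.1 CPM in spleen, 1.22-fold higher in spleen (1.04 to 1.43). Slc25a38, which imports glycine for the opening step of heme synthesis, was also higher in spleen, at 25.2 CPM in bone marrow against 34.3 CPM in spleen (1.36-fold, 1.14 to 1.62). All of them lay within the 2-fold limit. The glutathione importers split, with Slc25a39 at 98.1 CPM in bone marrow against 60.2 CPM in spleen (1.63-fold, 1.46 to 1.82), and Slc25a40 at 10.4 CPM in bone marrow against 18.4 CPM in spleen, 1.77-fold higher in spleen (1.37 to 2.30).

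Of 9 heme synthesis enzymes, 1 was called towards each tissue, and their median log2 ratio was 0.26. That is 11.1% in each direction, beside 14.1% of all measured genes towards bone marrow and 14.6% towards spleen. The called genes were the alternative enzymes of the glycine-using step. Alas1, the form of most tissues, was at 371 CPM in bone marrow against 42.2 CPM in spleen, an 8.80-fold difference (7.89 to 9.84), and Alas2, the erythroid form, at 3.72 CPM in bone marrow against 8.99 CPM in spleen. The glycine carrier Slc25a38 differed in the opposite direction to Alas1 and in the same direction as Alas2.

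Nucleotide and cofactor carriers leaned towards spleen, with 7 of 9 log2 ratios below 0 and a median of -0.31. Among all measured genes, 51.4% of log2 ratios were above 0. Intervals spanned 1 for 3 of the 9 carriers. Slc25a32, which imports folate, was 1.39-fold higher in spleen (1.12 to 1.73), at 16.4 CPM in bone marrow against 22.8 CPM in spleen. Slc25a36, a pyrimidine nucleotide carrier, was at 45.3 CPM in bone marrow against 56.4 CPM in spleen, 1.25-fold higher in spleen (1.09 to 1.42). Its relative Slc25a33, at 6.49 CPM in bone marrow against 7.09 CPM in spleen, had an interval of the fold of 0.630 to 1.33. Slc25a42, a coenzyme A carrier, was at 7.34 CPM in bone marrow against 10.9 CPM in spleen, 1.48-fold higher in spleen (1.07 to 2.06).

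For other cofactor carriers the differences were small or towards bone marrow. Slc25a51, the NAD carrier, was among the better counted members and did not differ beyond counting error, at 105.0 CPM in bone marrow against 105.8 CPM in spleen (0.906 to 1.09). Slc25a26, which imports S-adenosylmethionine, had 47 reads in bone marrow against 62 in spleen, and an interval of 0.456 to 1.01. Slc25a26 overlaps Lrig1, which had 11 reads in bone marrow against 184 in spleen. Slc25a17, which resides in peroxisomes and carries cofactors there, was at 60.0 CPM in bone marrow against 39.5 CPM in spleen (1.52-fold, 1.32 to 1.74), and Slc25a16 at 32.6 CPM in bone marrow against 23.5 CPM in spleen (1.39-fold, 1.16 to 1.67).

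Uncoupling-like and orphan carriers had low levels, with medians of 5.85 CPM in bone marrow against 12.3 CPM in spleen, and both members called here were higher in spleen. Slc25a53, an orphan carrier, had 66 reads in bone marrow against 207 in spleen, or 7.02 CPM in bone marrow against 24.5 CPM in spleen, a 3.49-fold difference (2.63 to 4.67). Zcchc18 spans the same locus and had 49 reads in bone marrow against 205 in spleen, so the reads of these genes may not be separable. Slc25a35, also an orphan, had 24 reads in bone marrow against 53 in spleen, or 2.55 CPM in bone marrow against 6.27 CPM in spleen, a 2.46-fold difference towards spleen (1.49 to 4.16). It lost its call with a pseudocount of 5, with a floor of 10 CPM and with RPKM, and it overlaps Rangrf, which had 173 reads in bone marrow against 50 in spleen. Zcchc18 and Rangrf were named after their values were seen.

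Other carriers of that group were not called. Slc25a45, an orphan, was at 48.7 CPM in bone marrow against 50.4 CPM in spleen. Slc25a46, an outer membrane member linked to mitochondrial shape, was at 63.0 CPM in bone marrow against 61.0 CPM in spleen, with a sign that changes when library totals are used. The uncoupling-like Slc25a14, Slc25a27 and Slc25a30 had intervals that spanned 1. In bone marrow they were at 4.68, 3.08 and 14.9 CPM, against 4.37, 3.90 and 18.3 CPM in spleen. Slc25a47 had 16 reads in bone marrow against 7 in spleen and an interval of 0.800 to 5.91. Among carriers outside the naming rule, 1 of 11 was called higher in bone marrow and 2 in spleen. Those are 9.09% and 18.2%, beside 14.1% and 14.6% of all measured genes. Ucp2, an uncoupling protein abundant in leukocytes, was at 873 CPM in bone marrow against 908 CPM in spleen. Sfxn1, a serine carrier of another family, was at 152 CPM in bone marrow against 63.4 CPM in spleen and Sfxn3 at 31.2 CPM in bone marrow against 75.7 CPM in spleen. The outer membrane porin Vdac1 was at 223 CPM in bone marrow against 94.9 CPM in spleen. It was the 1 of 3 porins called, higher in bone marrow, beside 14.1% of all measured genes.

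Ratios between related genes were taken within each library, which frees them from the scaling between libraries. The 10 pairs were chosen after the values were known, and intervals are exact conditional ones for counting error. Slc25a24 over Slc25a25 differed most, with an RPKM ratio of 2.68 in bone marrow against 0.591 in spleen, a 4.53-fold difference (3.59 to 5.73). Against Slc25a23 the RPKM ratio of Slc25a24 was 3.09 in bone marrow against 1.00 in spleen (3.07-fold, 2.37 to 3.99). Slc25a39 over Slc25a40 stood at 15.7 in bone marrow against 5.43 in spleen (2.88-fold, 2.17 to 3.84). In 3 further pairs the difference was near 2-fold or below, with 1.93 (1.72 to 2.16) for Slc25a5 over Slc25a4, 1.91 (1.57 to 2.33) for Tomm40 over Tomm40l and 1.84 (1.39 to 2.47) for Slc25a13 over Slc25a12.

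The other pairs shifted less. Timm17b over Timm17a was at 0.976 in bone marrow against 0.707 in spleen in RPKM, a 1.38-fold difference (1.06 to 1.79). Slc25a37 over Slc25a28 was the pair with an interval below 1, at RPKM ratios of 1.10 in bone marrow against 1.51 in spleen, and 0.729 (0.609 to 0.872) between the libraries. Timm8a1 over Timm8b (1.36, 0.995 to 1.86) and Slc25a36 over Slc25a33 (0.879, 0.590 to 1.31) had intervals that spanned 1.

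**Figure D4:**
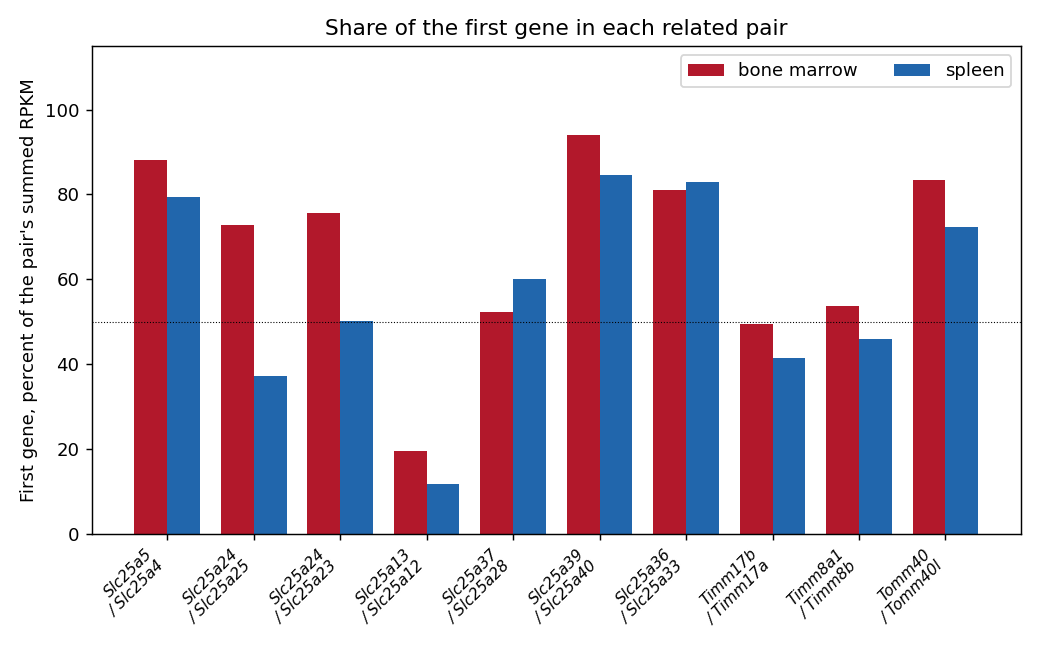
Share of the first-named gene in the summed RPKM of each of 10 related pairs, in percent, for the bone marrow library (red) and the spleen library (blue), 1 library per tissue. The share of Slc25a24 beside Slc25a25 is 72.8% in bone marrow against 37.1% in spleen, on either side of the dotted line at equal levels.

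In RPKM, Slc25a5, Slc25a3 and Tomm22 led the members in both libraries, followed by Slc25a4 and Timm23 in either order. Further down, the order differed between the libraries. After Slc25a5 and Slc25a3, the highest means over both libraries belonged to Tomm22 (87.6 RPKM in bone marrow against 82.0 RPKM in spleen), Slc25a4 (66.8 RPKM in bone marrow against 75.9 RPKM in spleen), Timm23 (79.2 RPKM in bone marrow against 59.5 RPKM in spleen), Slc25a11 (51.6 RPKM in bone marrow against 51.9 RPKM in spleen) and Tomm5 (58.5 RPKM in bone marrow against 44.5 RPKM in spleen). Among all genes Slc25a5 ranked 126 by RPKM in bone marrow and 171 in spleen. Levels of Tomm7, at 53.1 RPKM in bone marrow against 47.7 RPKM in spleen, are less certain, since the deposited coverage column gives only 34.3% of its length covered in bone marrow and 36.3% in spleen, against medians over the 61 members of 91.9% in bone marrow and 92.3% in spleen. Summed over all members, the level was 3737 CPM in bone marrow against 3073 CPM in spleen, and Slc25a5 alone held 628 CPM in bone marrow against 353 CPM in spleen of it.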

How the data were processed

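Each deposited table held, per the file headers, the count of reads placed uniquely on a gene, the gene's length, what percent of it was covered, its RPKM and its symbol. Counts summed to the total in each header, and RPKM recomputed from the count, length and total differed by at most 6.74e-06 percent. No aligner, counting program, strand setting or genome build is given in the sources used. Tables were joined on the Entrez identifier, and a gene absent from a table was given 0 reads.

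TMM factors (edgeR 4.0.16, R 4.3.3) were 0.977 for bone marrow and 1.02 for spleen. Ratios were bone marrow minus spleen on log2(CPM + 1). A count of 0 allows 3 reads (0.319 CPM for bone marrow, 0.355 CPM for spleen). Intervals (SciPy 1.17.1) are exact conditional binomial ones. They cover counting error only, since there is 1 library per tissue. Reads carried no molecular identifier, so amplified copies could not be set apart from separate molecules. Scripts were tested on simulated counts.

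Every member with 10 reads could be named, and other genes by the most reads or largest ratio in each list. Exceptions were Adgre1, Timm29, genes that overlap a member and listed genes without a read in a library. The result of 1 member is counted in the sums but not reported here. The members, role groups and lists were chosen with earlier results of these data known. Alternatives were library totals, DESeq2 1.42.0 size factors, TMM without marker genes, pseudocounts of 0.1 and 5 CPM, RPKM, no floor, a floor of 10 CPM and a 4-fold rule. Spans of 22 of the 61 members met another gene in RefSeq GRCm38.p6, with at least 10 reads for that gene in 7 cases.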

Additional observations from a re-analysis of the deposited data

How the results depend on the processing

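Over the 8 alternatives that give a median (the 4-fold rule gives none), the medians of the families kept their sign and stayed within the typical counting interval of a member (0.32 to 0.45 for Timm, 0.15 to 0.23 for Tomm and -0.10 to -0.01 for Slc25a). With a pseudocount of 0.1 CPM, 5 members were higher in bone marrow, as Slc25a12 and Timm50 crossed the limit, while the background was 16.1% of genes. Under the 4-fold rule 0 members were higher in bone marrow and 0 were higher in spleen, against 4.42% and 4.09% of measured genes. The same genes (Slc25a13, Slc25a24 and Timm8a1) were called towards bone marrow under the other settings, joined by Slc25a12 with DESeq2 size factors. Slc25a53 kept its call towards spleen at the 2-fold rule, and Slc25a35 lost its call in 3 settings, which left 2 members. Of 61 members, 3 changed sign between scalings or units, all with log2 ratios below 0.10 in size. The log2 ratio of Slc25a5 moved from 0.83 to 0.76 with library totals and with RPKM. That shift exceeded the counting error of Slc25a5, which was so for 1 member in each of these settings. TMM without marker genes moved the median of all genes to -0.03. That median was also below 0 with library totals (-0.04), with RPKM (-0.03) and with no floor (-0.02). No paired analysis was possible because there is 1 library per tissue, and for the same reason no library could be left out. Depth limits the genes with few reads: Slc25a47, with 16 reads in bone marrow against 7 in spleen, had a fold anywhere from 0.800 to 5.91.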
